A study of Mus musculus with 4 samples.

Results

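The genes described here encode the nuclear-encoded proteins of the mitochondrial respiratory chain and of the ATP synthase. They were chosen by name alone, as the gene names on the array that begin with Nduf and a subunit letter (a, b, c, s or v), with Uqcr, with Cox4 to Cox8 or with Atp5, together with Sdha, Sdhb, Sdhc and Sdhd. This gave 83 genes of 27745 gene names, read by 116 of 41174 probes. Where a gene had more than 1 probe, as 26 genes did, the brightest probe was used. The genes were grouped into 35 of complex I, 4 of complex II, 7 of complex III, 18 of complex IV and 15 of complex V, and 4 further genes share the names but are assembly factors or other proteins. These 4 were Ndufaf1 and Ndufa12l (now Ndufaf2), which help to build complex I, Atp5s (now Dmac2l) and Cox4nb (now Emc8), a part of the membrane protein insertion machinery of the endoplasmic reticulum. Ndufa4, once counted with complex I, was placed in complex IV.

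Messenger RNA was measured in mouse embryonic fibroblasts (MEFs), connective-tissue cells grown from embryos, to ask which transcripts differ when cyclin G1 or cyclin G2 is missing. MEFs of CycG1-/- mice (G1KO) were compared with MEFs of CycG1+/+ mice, and MEFs of CycG2-/- mice (G2KO) with MEFs of CycG2+/+ mice, so each knockout had a wild type (WT) of its own. All cells were harvested in logarithmic growth, and the strain was labelled C57BL/6J throughout, although the source names of the G2KO pair write C57BL/7J. In the Ccng1 allele a neomycin cassette stands in place of the exons with the reading frame. The number of embryos behind a culture is not given in the sources used here. Each pair was hybridised on 2 arrays of 2 colours, with the dyes Cy5 and Cy3 exchanged on the other array, so there was 1 RNA per genotype. No difference therefore has a replicate check, no test was made, and each ± value is the technical SD of a pair's 2 arrays.

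Complexes I to IV of the respiratory chain pass electrons from NADH and succinate to oxygen, complexes I, III and IV pump protons across the inner mitochondrial membrane, and complex V (ATP synthase) uses the proton gradient to make ATP. Most subunits are encoded in the nucleus, while parts of complexes I, III, IV and V come from mitochondrial DNA. Several nuclear subunits of complex IV exist as a common isoform and an isoform of heart and skeletal muscle, lung or testis. Fibroblasts express the common isoforms, and the nuclear genes are known targets of the transcription factors NRF1, GABP (an ETS factor) and YY1, with the coactivators of the PGC-1 family.

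The labels were checked first. Ccng1 had a log2 ratio of -6.67 ± 0.13 in G1KO over its WT. Ccng2 was not lower in the other knockout (0.28 and -0.10 on the 2 arrays, mean 0.09), and whether its probe lies in the deleted part is not given in the sources used here, so that sample is called the G2KO-labelled RNA. In the paper the genotype of G2KO MEFs was checked by RT-PCR with primers for Ccng2. Ccng1 was higher in the G2KO-labelled RNA than in its WT (2.65 and 2.69 on the 2 arrays, mean 2.67). All 12 fibroblast markers examined were well above background in both genotypes on every array. In the G2KO-labelled RNA, however, 9 of 12 were lower by at least 1.5-fold on each array, against 8.32% of all probes. These markers had a median of -1.36 there (range -4.63 to 0.05). In G1KO 2 were lower and 2 higher, against 8.05% and 5.04% of all probes (median of the markers -0.21, range -4.05 to 1.09). In both pairs Xist was higher in the knockout (7.54 and 7.24) and the 4 Y-linked genes examined were lower. Eif2s3y was well above background on both arrays in each WT and on no array in either knockout. The paper attributes the Xist difference to a female origin of the G1KO and G2KO MEFs. Knockout and WT cultures thus differed in these sex-linked transcripts. In the ratios below, also those of the X-linked members, genotype and sex cannot be told apart. The 3 of 6 neural, 3 of 4 epithelial and 2 of 4 blood markers tested in G1KO had medians of 0.23, -0.32 and -0.05, and the 5, 1 and 2 tested in the G2KO-labelled RNA had medians of -0.71, -0.28 and -0.02. The neural markers ran from -0.54 to 2.34 in G1KO, where Nes was the highest, and from -1.24 to 5.59 in the other comparison, where Sox2 (5.59) and Nes (3.37) were higher and the other 3 lower. The epithelial markers ran from -1.14 to -0.08 in G1KO. The part of these differences in the values below was not tested, and in bulk RNA fewer cells of a type and less RNA per cell cannot be told apart. The 4 arrays shared 1 slide and 1 scan.

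The promoters of the members share letters that the choice by name did not use, so a few are shown before the values. RefSeq promoters of GRCm38.p6, each reaching from upstream of a start site to just inside the gene, were matched to 68 of the 83 genes (73 promoters) and searched on both strands. The letters GCGCANGCG, as bound by NRF1, stood in 28.8% of the members' promoters and in 6.25% of all 32851 promoters. CCGGAAG, an ETS motif, stood in 23.3% against 8.86%, and AANATGGCG, as bound by YY1, in 13.7% against 2.38%. GGGCGG, as bound by SP1, stood in 41.1% against 35.7%. The first of these motifs can overlap its own reverse complement, and each promoter was counted once. The windows below are from genes with the largest differences in the results that follow, printed 5′ to 3′ along the gene, with the letters of the motif or of its reverse complement in capitals.
Uqcr, NRF1-like, chr10:80406807-80406836, minus strand: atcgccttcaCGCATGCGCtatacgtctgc
Uqcr, ETS-like, chr10:80406869-80406898, minus strand: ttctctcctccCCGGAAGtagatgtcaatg
Ndufs7, YY1-like, chr10:80249463-80249492, plus strand: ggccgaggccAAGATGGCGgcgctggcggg
Ndufs5, NRF1-like, chr4:123718265-123718294, minus strand: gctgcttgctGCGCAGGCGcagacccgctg
Sdhb, ETS-like, chr4:140961266-140961295, plus strand: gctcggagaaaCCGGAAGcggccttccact
Cox6a1, NRF1-like, chr5:115349056-115349085, minus strand: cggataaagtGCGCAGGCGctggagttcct
Cox6a1, ETS-like, chr5:115348956-115348985, minus strand: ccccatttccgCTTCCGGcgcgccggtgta
A match is a description of the letters and not of a bound site. Members with and without the NRF1-like letters had medians of -0.02 and -0.04 in G1KO and of -0.01 and -0.04 in the G2KO-labelled RNA. With and without the ETS-like letters they were -0.13 and -0.02 in G1KO and -0.17 and 0.03 in the G2KO-labelled RNA. With and without the YY1-like letters they were 0.01 and -0.03, and -0.04 and -0.01.

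The respiratory chain genes lay close to their WT level in each knockout. Of the 83 genes, 80 were tested in each comparison, which means that at least 1 genotype gave a signal well above background on each array. The 3 that were not were Cox4i2, Cox8b and Cox8c. In G1KO, 5 further genes (Ndufa13, Ndufb11, Cox5a, Atp5f1 and Atp5g3) had a value on 1 array only, because the scanner software marked the other spot as an outlier, which left 75 genes with both arrays. No member was called at 2-fold, meaning a log2 ratio of at least 1 in size and of the same sign on each array, in either comparison. Over all probes with both arrays the share called was 5.79% in G1KO and 6.37% in the G2KO-labelled RNA. At 1.5-fold on each array no member was higher in G1KO (background 5.04%) and none was lower (8.05%). For the G2KO-labelled RNA, none was higher (6.28%) and 1 was lower, Cox6a2 (8.32%).

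At the smaller threshold of 1.25-fold on each array, which was added after the values were seen, 1 member was higher and 8 were lower in G1KO, or 1.33% and 10.7% of the 75, against 11.8% and 15.4% of all probes. With G2KO-labelled RNA, 3 were higher and 11 were lower, or 3.75% and 13.8% of the 80, against 14.3% and 16.3% of all probes. In each direction the members' share was below that of all probes. The members' spread was also smaller: the SD across members was 0.22 in G1KO and 0.28 in the G2KO-labelled RNA, against 0.59 and 0.63 across all probes. The members are bright (median log2 brightness of 14.3, against 8.89 over all probes), so this difference in spread is not one between probes of equal brightness.

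Their median log2 ratio was -0.05 in G1KO (-0.03 and -0.05 on the 2 arrays, range over members -0.62 to 0.36), where all probes had a median of 0.00. In the G2KO-labelled RNA it was -0.04 (0.00 and -0.06 on the 2 arrays, range -0.83 to 0.56), where all probes had a median of -0.01, but it turned to 0.11 when the arrays were centred on their median in place of loess. In G1KO 24 members lay above 0 on both arrays (32.0%, all probes 39.8%) and 34 below (45.3%, all probes 40.8%). For the G2KO-labelled RNA, 26 lay above (32.5%, all probes 40.7%) and 33 below (41.2%, all probes 42.7%). Arrays of opposite sign were seen for 17 and 21 members. These counts by sign hold for loess (and are 23 and 33 in G1KO, and 29 and 36 in the other comparison, with the scanner software's ratio). With median centring the members' median was 0.88 on the array with the G1KO RNA in Cy5 and -0.93 on the other, and 0.99 and -0.84 in the other pair, so 73 of 75 and 78 of 80 members had arrays of opposite sign, against 71.3% and 67.2% of all probes. Under that scaling the arrays of a pair were thus shifted to opposite sides of 0, and the counts by sign given below do not hold under it.

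**Figure D1:**
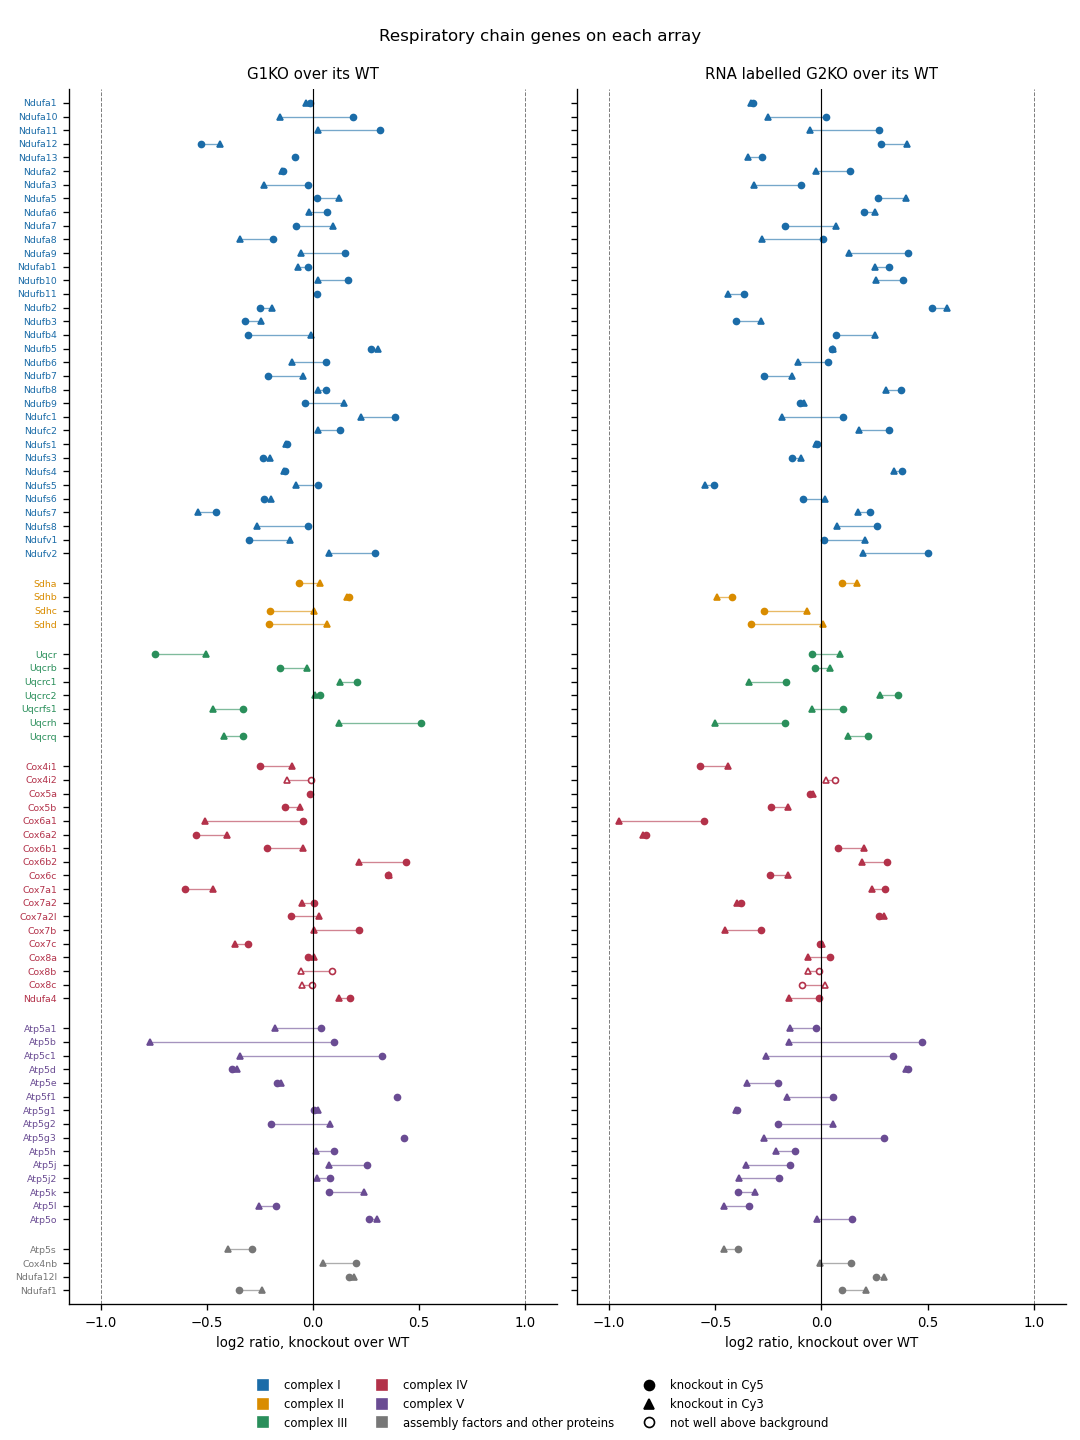
Log2 ratio of knockout over WT for each gene shown on each array (circles, knockout in Cy5; triangles, knockout in Cy3; a line joins the arrays of a pair; open symbols, not well above background in either genotype), grouped by complex. Dashed lines mark 2-fold, which no gene passed on both arrays; Cox6a2 in the G2KO-labelled RNA lies at -0.83 and -0.84.

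Complex I (NADH dehydrogenase) takes electrons from NADH. Its 35 genes had a median of -0.05 in G1KO, with 8 above 0 on both arrays and 18 below among the 33 with both arrays. With G2KO-labelled RNA, the median was 0.05, with 16 above and 11 below. Beside these counts, and those of the complexes below, 39.8% of all probes lay above 0 and 40.8% below in G1KO. In the other comparison these shares were 40.7% and 42.7%. Both medians of complex I were within the SD across the complex (0.19 and 0.27). With median centring they were -0.01 and 0.16, and over all detected probes of each gene the median in G1KO was -0.12.

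The nuclear core subunits of complex I carry the flavin and the iron-sulphur clusters or line the quinone site. In G1KO most of those described here lay below 0. Ndufs7, an iron-sulphur subunit beside the quinone site, read -0.46 and -0.54 on the 2 arrays (mean -0.50 ± 0.06). Ndufs3 had a mean of -0.22 ± 0.02, Ndufv1, which binds NADH, -0.20 ± 0.13, Ndufs8 -0.14 ± 0.17 and Ndufs1 -0.12, with arrays at -0.12 and -0.13. Ndufv2 was the exception, at 0.29 and 0.08.

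In the G2KO-labelled RNA these core subunits were divided. Ndufv2 read 0.50 and 0.20 and was on the higher side in both pairs. Ndufs7 (0.23 and 0.17), Ndufs8 (0.26 and 0.07) and Ndufv1 (0.01 and 0.20) stood above 0 here and below 0 in G1KO. Ndufs3 (-0.12) and Ndufs1 (-0.02) were near 0 on the lower side, and both changed sign in at least 1 other processing.

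Of the 28 accessory subunits of complex I, which surround the core, the 26 with both arrays in G1KO had 7 above 0 and 12 below on both arrays. Ndufa12 read -0.53 and -0.44 there (mean -0.48 ± 0.06), and its other probes gave -0.47 and -0.46. For the G2KO-labelled RNA, Ndufa12 stood on the other side, at 0.28 and 0.40, with the same other probes at 0.35 each. These other probes overlap each other, and the brightest lies elsewhere on the transcript, so the values of separate stretches lay close together in each pair. Ndufb2, of the membrane arm, showed the largest value of the complex in the G2KO-labelled RNA, 0.52 and 0.59 (mean 0.56 ± 0.05), and its other, dimmer probe gave 0.55. In G1KO the same gene read -0.25 and -0.19 (mean -0.22), where the other probe gave -0.02.

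Ndufs5 was the lowest of complex I in the G2KO-labelled RNA, at -0.50 and -0.55 (mean -0.53 ± 0.03), while in G1KO it read 0.02 and -0.08. Ndufs4, named after its values were seen because it passed 1.25-fold, read 0.38 and 0.34 in the G2KO-labelled RNA and -0.13 and -0.14 in G1KO. Ndufc1 (0.31 ± 0.11) and Ndufb5 (0.29 ± 0.02), likewise chosen by their values, were the highest of the complex in G1KO, and neither passed 1.25-fold on both arrays. Of the 2 genes of complex I on chromosome X, Ndufa1 read -0.01 and -0.03 in G1KO and -0.32 and -0.33 in the G2KO-labelled RNA, and its other probe gave -0.01 and -0.36. Ndufb11 had 1 usable array in G1KO (0.02) and read -0.36 and -0.44 in the G2KO-labelled RNA.

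Complex II (succinate dehydrogenase) is the member of the chain that also works in the citric acid cycle. All 4 genes were tested. Sdha, the flavoprotein that oxidises succinate, read -0.07 and 0.03 in G1KO and 0.10 and 0.17 in the G2KO-labelled RNA. Sdhb, its iron-sulphur partner, read 0.17 and 0.16 in G1KO and -0.42 and -0.49 in the G2KO-labelled RNA. The arrays of each pair gave nearly the same value for Sdhb, and the pairs lay on opposite sides of 0. The membrane anchors Sdhc and Sdhd differed more between arrays than from 0: Sdhc read -0.20 and 0.00 in G1KO and -0.27 and -0.07 in the G2KO-labelled RNA. Sdhd read -0.21 and 0.07, and -0.33 and 0.01. The median over the complex was -0.04 in G1KO and -0.17 in the G2KO-labelled RNA, and the value for G1KO turned to 0.01 with the scanner software's own ratio.

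Complex III (cytochrome bc1 complex) passes electrons from ubiquinol to cytochrome c. Its median was -0.09 in G1KO (3 above 0 on both arrays, 4 below) and 0.02 in the G2KO-labelled RNA (2 above, 2 below), where the array with the knockout in Cy5 alone gave -0.03. Uqcr (now Uqcr11), a small subunit, showed the lowest value of all members in G1KO, -0.74 and -0.50 (mean -0.62 ± 0.17), a ratio of 0.65 of WT. Its level in the G1KO RNA was 14.45 and 14.59 on the log2 scale of single channels, against 15.19 and 15.09 in the WT of that pair. In the other pair its levels ran from 15.16 to 15.25 over both genotypes, so G1KO was the lowest of the RNAs. The probe lies on chromosome 10 from 79806148 to 79806207 in the mm8 positions of the array design.

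Uqcrfs1, the Rieske iron-sulphur protein, read -0.33 and -0.47 in G1KO (mean -0.40 ± 0.10) and 0.10 and -0.04 in the G2KO-labelled RNA. Uqcrq, named after its values were seen, read -0.33 and -0.42 in G1KO and 0.22 and 0.13 in the G2KO-labelled RNA. Uqcrh, the hinge protein that contacts cytochrome c1, went the other way: it read 0.51 and 0.13 in G1KO and -0.17 and -0.50 in the G2KO-labelled RNA, and its other probe gave means of 0.33 and -0.34. Uqcrc2, a core protein, read 0.03 and 0.01 in G1KO and 0.36 and 0.28 in the G2KO-labelled RNA.

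Complex IV (cytochrome c oxidase) hands the electrons to oxygen. Of its 18 genes, 15 were tested, and the median was -0.07 in G1KO (4 above 0 on both arrays, 7 below, of 14) and -0.08 in the G2KO-labelled RNA (4 above, 9 below, of 15). The value in the G2KO-labelled RNA became 0.07 under median centring. The spread was wider than in the other complexes with over 10 genes, with SDs across genes of 0.27 and 0.35.

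In the G2KO-labelled RNA subunit 6a held the largest differences of the complex, and in G1KO subunit 7a did. Cox6a2, the isoform of heart and skeletal muscle, read -0.83 and -0.84 in the G2KO-labelled RNA (mean -0.83 ± 0.01), a ratio of 0.56 of WT, and it alone passed 1.5-fold. In G1KO it read -0.55 and -0.40 (mean -0.48 ± 0.10), so its ratio was below 0 on every array of both pairs. Its levels were 7.76 and 7.66 in the G2KO-labelled RNA and 8.59 and 8.50 in its WT, and 6.92 and 7.31 in G1KO and 7.47 and 7.71 in its WT. The WT of one pair differed from the WT of the other by 0.95, more than either knockout from its own WT. With no normexp offset the mean in the G2KO-labelled RNA was -1.05 and the gene was called at 2-fold. With median centring it was -0.80, and the gene no longer passed 1.5-fold on each array. The probe was dim (log2 brightness 7.73, median of members 14.3), not far above the untested Cox4i2 (6.16). It lies on chromosome 7 from 127996794 to 127996853 (mm8).

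Cox6a1, the common isoform, was also low in the G2KO-labelled RNA, at -0.55 and -0.95 (mean -0.75 ± 0.28). In G1KO it read -0.05 and -0.51, so the array with the knockout in Cy3 gave the lower value in each pair by about the same amount. Its levels were high, from 16.60 to 17.55, but no spot was saturated. Cox4i1, the common isoform of subunit 4, read -0.25 and -0.10 in G1KO and -0.57 and -0.44 in the G2KO-labelled RNA. Its partner Cox4i2, known from lung, was well above background on 1 array of 1 WT only and was not tested.

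Cox7a1, the muscle isoform of subunit 7a, read -0.60 and -0.47 in G1KO (mean -0.54 ± 0.09) and 0.30 and 0.24 in the G2KO-labelled RNA. Its common partner Cox7a2 read 0.00 and -0.05 in G1KO and -0.38 and -0.40 in the G2KO-labelled RNA, the reverse order. The related Cox7a2l, which takes part in joining complexes III and IV, read -0.10 and 0.03 in G1KO and 0.27 and 0.30 in the G2KO-labelled RNA. The isoforms of subunit 7a thus had no common direction. Cox6b2, the testis isoform of subunit 6b, was above 0 on all arrays (0.44 and 0.22, then 0.31 and 0.19), and its common partner Cox6b1 read -0.22 and -0.04, then 0.08 and 0.20. The probes of Cox7a1 and Cox6b2 were also dim (log2 brightness 7.50 and 7.19, median of members 14.3), not far above the untested Cox4i2 (6.16), Cox8b (6.06) and Cox8c (6.03). Over all processings Cox7a1 ran from -0.69 to -0.47 and Cox6b2 from 0.22 to 0.62 in G1KO. Of subunit 8, the common Cox8a stayed near 0 (means of -0.01 in each pair), and the muscle isoform Cox8b and the testis isoform Cox8c were not well above background on any array. Among 11 markers of muscle, 6 were tested in G1KO (median -0.07, range -0.56 to 1.55) and 5 in the G2KO-labelled RNA (median 0.12, range -0.81 to 1.69). Tnnt2 was the highest in both (1.55 and 1.69), Acta1, Actc1, Myl4 and Tnnt1 were also tested in both, and Myod1 in G1KO alone. Of the others, Ckm, Des and Mb were not well above background on any array, while Myh3 and Myog were above it in some channels but too few to be tested.

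Cox6c, the only member higher by 1.25-fold on each array in G1KO, read 0.35 and 0.36 there and -0.24 and -0.16 in the G2KO-labelled RNA. Cox7b, on chromosome X, read 0.21 and 0.01 in G1KO and -0.28 and -0.45 in the G2KO-labelled RNA. Ndufa4 read 0.17 and 0.12 in G1KO and -0.01 and -0.15 in the G2KO-labelled RNA.

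Complex V (ATP synthase) makes ATP from the proton gradient. Its median was -0.01 in G1KO (6 above 0 on both arrays, 3 below, of 13), a value whose sign changed among processings, and -0.09 in the G2KO-labelled RNA (1 above, 8 below, of 15), which became 0.07 under median centring. By the brightest probes, Atp5d, the delta subunit of the central stalk, was the exception in the G2KO-labelled RNA. Dimmer probes of Atp5b, described below, also had means above 0 there (0.34 and 0.32). Atp5d read 0.41 and 0.40 there and -0.38 and -0.36 in G1KO. Its levels were 13.44 and 13.45 in G1KO, between 13.81 and 13.82 in the WTs and 14.23 and 14.22 in the G2KO-labelled RNA. The WTs were thus alike for this gene, and the knockouts lay on either side of them. The probe lies on chromosome 10 from 79548634 to 79548693 (mm8).

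Atp5g1, which encodes the membrane ring subunit c, read 0.01 and 0.03 in G1KO and -0.40 on both arrays in the G2KO-labelled RNA. Of the other genes for the same ring subunit, Atp5g2 read -0.20 and 0.08, then -0.20 and 0.05. Atp5g3 had 1 usable array in G1KO (0.43) and read 0.30 and -0.27 in the G2KO-labelled RNA. Only Atp5g1 had arrays of the same sign in that comparison, so no direction is given for the other genes of the ring. Atp5l, the g subunit, read -0.18 and -0.25, then -0.34 and -0.46.

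Atp5b, the catalytic beta subunit, had the widest spread between arrays of all members. Its brightest probe read 0.10 and -0.77 in G1KO (mean -0.34 ± 0.61) and 0.47 and -0.15 in the G2KO-labelled RNA (mean 0.16 ± 0.44), so each array with the knockout in Cy5 was the higher of its pair. Its dimmer probes had arrays closer together and gave means of -0.39 ± 0.07 and -0.32 ± 0.15 in G1KO and of 0.34 and 0.32 in the G2KO-labelled RNA. Atp5c1, the gamma subunit, had the next widest spread (0.33 and -0.34, then 0.34 and -0.26), and no difference can be read from it. When the 5 outlying spots were kept, the array with the knockout in Cy3 read -0.12 for Ndufa13, -0.07 for Ndufb11, -0.14 for Cox5a, 0.15 for Atp5f1 and -0.33 for Atp5g3, against -0.08, 0.02, -0.02, 0.40 and 0.43 on the other array. Over all members with further probes, 22 of 28 further probes had the sign of the brightest in G1KO (median difference in size of 0.03, largest 0.47) and 21 of 30 in the G2KO-labelled RNA (0.06, largest 0.48).

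Of the genes that share the names only, Atp5s was below 0 in both pairs (-0.29 and -0.40, then -0.39 and -0.46). Ndufaf1 read -0.35 and -0.24 in G1KO and 0.10 and 0.21 in the G2KO-labelled RNA. Ndufa12l was above 0 on all arrays (0.17 and 0.19, then 0.26 and 0.29), and Cox4nb had means of 0.12 and 0.07, where its other, dimmer probe gave -0.15 and -0.19.

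Set side by side, the comparisons share no sample, and 75 members had both arrays in each. Of these, 9 were above 0 on all 4 arrays (12%, all probes 16.4%) and 14 were below (18.7%, all probes 17.1%). A further 11 were above 0 in G1KO and below in the G2KO-labelled RNA on all arrays (14.7%, all probes 18.4%), and 13 were the reverse (17.3%, all probes 17.3%). These shares lay near those of all probes. The genes below 0 throughout included Cox4i1, Cox6a1, Cox6a2, Atp5e and Atp5l, and those above 0 throughout included Ndufv2, Uqcrc2 and Cox6b2. The genes below 0 in G1KO and above 0 in the other pair included the core subunits Ndufs7, Ndufs8 and Ndufv1, with Cox7a1 and Atp5d. Across the 75 members the correlation between the comparisons was r = 0.01 (Spearman's rho = 0.00), and across all 24150 probes with both it was r = -0.04. The members are genes on shared arrays and are not independent replicates, so these are descriptions.

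**Figure D2:**
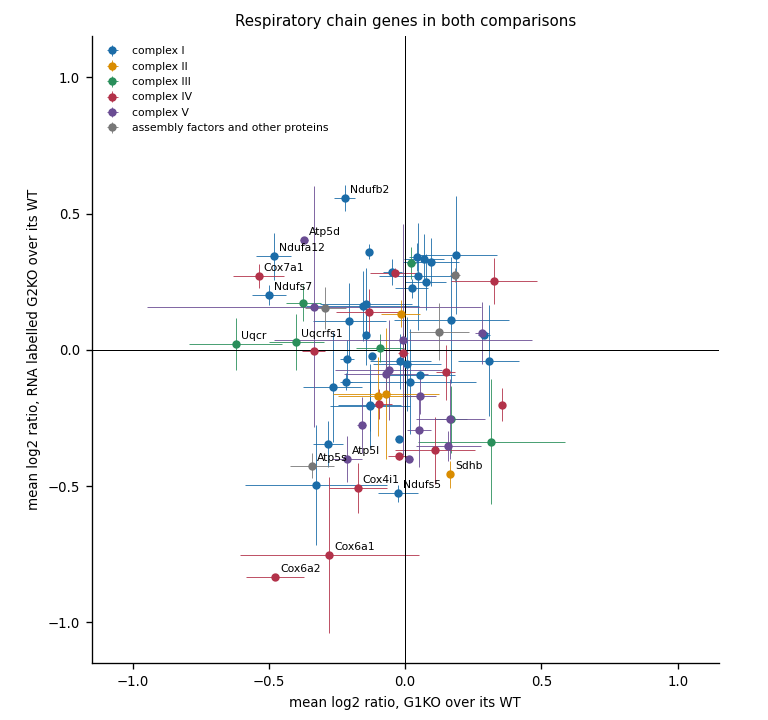
Mean log2 ratio of each of 75 genes in G1KO (x axis) and in the G2KO-labelled RNA (y axis), coloured by complex; bars show the technical SD of each pair. The points show no common slope (r = 0.01), with Cox6a2 and Cox6a1 low on the y axis, Uqcr low on the x axis, and Atp5d, Ndufa12, Ndufs7 and Cox7a1 at the upper left.

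The members differed by chromosome, which was looked at after the values were seen. All 5 members on chromosome 10 (Ndufa12, Ndufs7, Uqcr, Atp5b and Atp5d) had a mean below 0 in G1KO (median -0.48), where the 1234 other tested probes of that chromosome had a median of -0.28 and 20.9% of them lay above 0. With G2KO-labelled RNA, all 5 had a mean above 0 (median 0.20), where 1238 other probes of the chromosome had a median of 0.16 and 70.0% lay above 0, although the arrays of Uqcr and of Atp5b differed in sign there. The members with low and high values on chromosome 10 were therefore beside other genes with the same lean. Uqcr read -0.34 in G1KO once the median of its chromosome was subtracted, against -0.62 before.

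On chromosome X the 3 members had a median of -0.37 in the G2KO-labelled RNA, where 853 other probes had a median of -0.10, and the 2 with both arrays in G1KO had a median of 0.04, where 844 other probes had 0.09. All 4 members of chromosome 4 had a mean below 0 in the G2KO-labelled RNA (median -0.40, other probes -0.15), as did all 5 of chromosome 9 (median -0.25, other probes -0.15), although the arrays of Ndufb6 and of Sdhd differed in sign. Over all members, the mean ratio and the median of the other probes of the same chromosome had r = 0.59 in G1KO (75 members) and r = 0.65 in the G2KO-labelled RNA (80 members). The points share arrays, and members of 1 chromosome share an x value, so no p-value is given. With the chromosome medians subtracted the SD across members went from 0.22 to 0.18 and from 0.28 to 0.23, and the members' median from -0.05 to -0.06 and from -0.04 to -0.05.

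**Figure D3:**
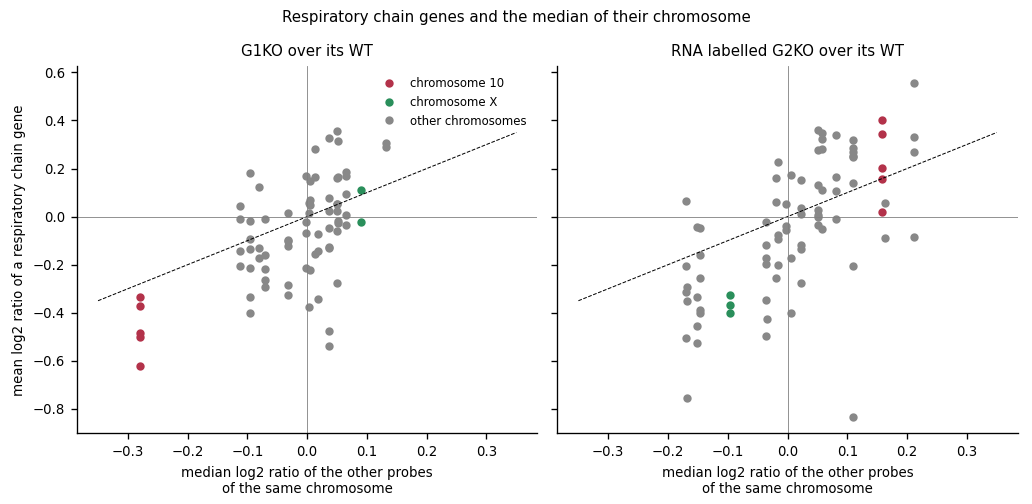
Mean log2 ratio of each respiratory chain gene (y axis) against the median log2 ratio of the other tested probes on its chromosome (x axis), for G1KO (75 genes) and the G2KO-labelled RNA (80 genes); the dashed line marks equality. The 5 genes of chromosome 10 are at the lower left in G1KO and above 0 toward the right in the G2KO-labelled RNA.

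Levels of single channels let each gene be followed through the 4 RNAs, although such a comparison crosses arrays. Over the 80 members tested in both, the WT of the G2KO pair exceeded the WT of the G1KO pair by a median of 0.18 on the log2 scale (range -1.13 to 1.03), and 62 of 80 were higher. The 2018 probes of like brightness (at or above the lower quartile of the members) had a median of 0.02, with 1046 higher. The G2KO-labelled RNA exceeded the WT of the G1KO pair by a median of 0.20, with 61 of 80 higher, against a median of 0.06 and 1130 of the 2018 probes of like brightness. The differences between the pairs were thus larger than the medians of -0.05 and -0.04 within the pairs, and pair, culture and array cannot be told apart.

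By complex, the difference between the WTs had medians of 0.42 in complex V (13 of 15 higher), 0.23 in complexes II (4 of 4) and IV (13 of 15), 0.16 in complex I (27 of 35) and -0.07 in complex III (3 of 7). Of the 4 RNAs, G1KO held the lowest level for 38 of 80 members and the highest for 3, and the WT of the G2KO pair held the highest for 42 and the lowest for 9. The WT of the G1KO pair was lowest for 24 and highest for 8, and the G2KO-labelled RNA was lowest for 9 and highest for 27. The range over the 4 RNAs had a median of 0.47 and reached 1.43 in Cox6a2. The differences between the WTs reached -1.13 in Cox7a1 and 1.03 in Cox7c, a common subunit of complex IV, followed by 0.97 in Atp5k and 0.95 in Cox6a2.

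**Figure D4:**
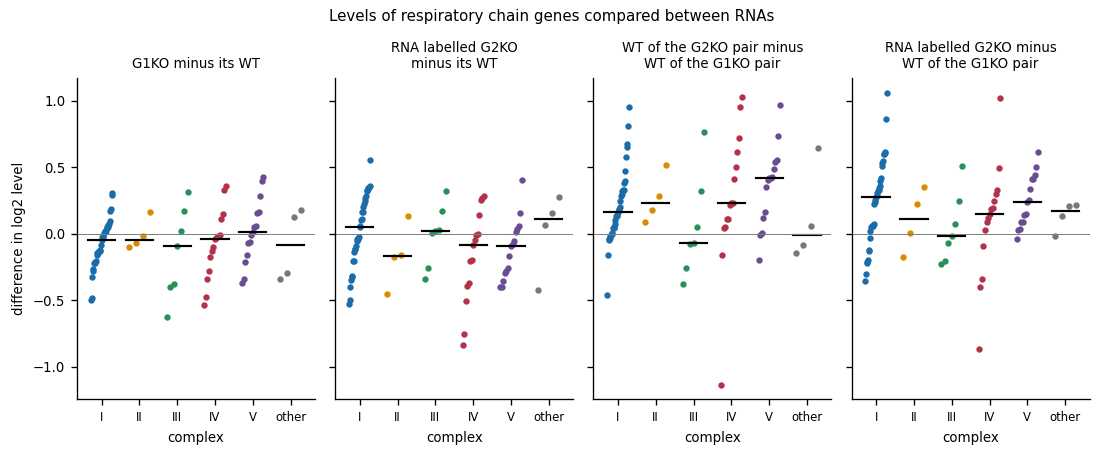
Differences in log2 level of the 80 tested genes between RNAs, by complex (points, genes; black bars, medians; other, assembly factors and other proteins). The panels within a pair, which include genes with 1 usable array, are centred near 0, while the panels between pairs have most points above 0, with complex V at a median of 0.42 between the WTs.

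The other genes of the pathway were taken from lists of known members. Of 8 complex genes with other names, 7 had both arrays in G1KO (2 above 0 on both arrays, 2 below) and 8 in the G2KO-labelled RNA (2 above, 4 below). Cycs, the electron carrier cytochrome c, read 0.70 and 0.64 in the G2KO-labelled RNA, past 1.5-fold on each array, and had 1 usable array in G1KO (0.12). Cyc1, the cytochrome c1 of complex III, had means of 0.27 and 0.17. Higd2a, a factor of complex IV, read -0.44 and -0.50 in G1KO, where Usmg5 of complex V had a mean of -0.19. In the G2KO-labelled RNA the copper chaperone Cox17 and the ATP synthase inhibitor Atpif1 had means of -0.25 and -0.18. Of 3 probes named for mitochondrially encoded subunits, all were below 0 on both arrays in the G2KO-labelled RNA: COX2 had a mean of -0.25, CYTB of -0.22 and ND4L of -0.14. Their median of -0.22 became -0.05 with median centring. In G1KO CYTB read -0.08 and -0.24, and the others had 1 usable array (-0.27 and 0.19). The array design places the probe named COX2 on chromosome 1 and not on mitochondrial DNA, so it may not read the subunit of that name.

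Of the assembly factors, in G1KO 4 of 25 were above 0 on both arrays (all probes 39.8%) and 16 below (all probes 40.8%), with a median of -0.14. By 1.25-fold 2 were higher (all probes 11.8%) and 3 lower (all probes 15.4%). For the G2KO-labelled RNA, 13 of 24 were above (all probes 40.7%) and 9 below (all probes 42.7%), with a median of 0.20. By 1.25-fold 5 were higher (all probes 14.3%) and 1 lower (all probes 16.3%). With median centring the medians were -0.10 and 0.22, but none and 2 were then above 0 on both arrays and none below. Cox16, of complex IV assembly, read -0.60 and -0.56 in G1KO and 0.41 and 0.40 in the G2KO-labelled RNA. Lrpprc, which stabilises mitochondrial messenger RNA, had a mean of 0.57 and Atpaf1, of complex V assembly, of 0.52 in G1KO. With G2KO-labelled RNA, Timmdc1 and Atpaf2 had means of 0.56 and 0.50 and Cox11, a copper chaperone, of -0.56.

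The regulators of respiratory genes had larger single differences than the members. The coactivators Ppargc1b and Ppargc1a read 1.09 and 1.16, and 0.77 and 0.82, in G1KO, and had means of -0.03 and -0.23 in the G2KO-labelled RNA. Esrra, the nuclear receptor that works with them, read -0.80 and -0.63 in G1KO and 1.22 and 1.31 in the G2KO-labelled RNA, so it was called at 2-fold in that comparison as Ppargc1b was in G1KO. In each comparison this was 1 call among 14 regulators tested, where 5.79% and 6.37% of all probes were called. Of 14 regulators tested, 8 were above 0 on both arrays and 4 below in G1KO (median 0.13), and 7 above and 5 below in the G2KO-labelled RNA (median 0.08). Nrf1, Gabpa and Yy1, whose letters were sought in the promoters, had means of 0.15, 0.10 and 0.22 in G1KO and of 0.45, -0.10 and -0.34 in the G2KO-labelled RNA. In that comparison Polrmt, the mitochondrial RNA polymerase, had a mean of 0.54 and the coactivator Pprc1 of 0.49.

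With loess, the medians of other mitochondrial lists lay on both sides of the members' median in each comparison. By the scanner software's ratio in G1KO the assembly factors (-0.10) lay below the members' median (-0.04). The citric acid cycle (0.12), ribosomal (-0.003) and carrier (0.10) lists described next all lay above it there. The citric acid cycle and pyruvate dehydrogenase genes had medians of 0.09 in G1KO (6 above 0 on both arrays, 5 below, of 15) and -0.09 in the G2KO-labelled RNA (5 above, 9 below, of 16), the latter turning to 0.03 with median centring. Sucla2 and Suclg2, of succinyl-CoA synthetase, had means of 0.50 and 0.36 in G1KO, and Pdha1 of -0.27, while citrate synthase (Cs) read -0.39 on its 1 usable array. Dlat, of pyruvate dehydrogenase, had a mean of 0.68 in the G2KO-labelled RNA, Cs of 0.36 and Mdh2 of -0.42 ± 0.53.

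The 75 mitochondrial ribosomal protein genes had a median of -0.06 in G1KO (17 above 0 on both arrays, 35 below, all probes 39.8% and 40.8%), which was 0.00 by the scanner software's ratio. In the G2KO-labelled RNA their median was 0.11 (45 above, 16 below, all probes 40.7% and 42.7%). With median centring the medians were -0.03 and 0.22, and 1 gene and 3 genes then had arrays of the same sign. Mrps6 (mean 1.11) was called at 2-fold in G1KO and Mrps12 (-1.30) in the G2KO-labelled RNA. Each was 1 call among 75 genes, where 5.79% and 6.37% of all probes were called. In G1KO Mrpl54 and Mrpl36 had means of -0.71 and -0.70, and in the G2KO-labelled RNA Mrpl35 and Mrpl19 of 0.73 and 0.61. Genes of the outer membrane, import and carriers had medians of 0.06 (7 above, 4 below, of 19) and -0.02 (7 above, 5 below, of 19), the latter turning to 0.13 with median centring. The phosphate carrier Slc25a3, also on chromosome 10, read -0.78 and -0.64 in G1KO, where Tomm70a had a mean of 0.34 and Hspa9 of 0.23. In the G2KO-labelled RNA the import receptor Tomm22 read -1.21 and -1.46 and was called at 2-fold, 1 of the 19 tested (all probes 6.37%). The nucleotide carrier Slc25a4 had a mean of -0.59 ± 0.39 there and Phb2 of 0.48.

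**Figure D5:**
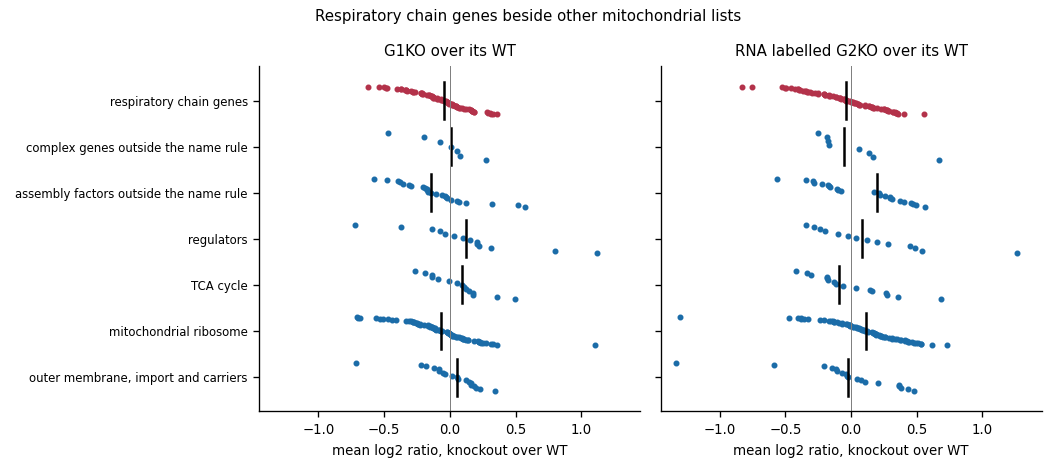
Mean log2 ratio of knockout over WT for genes with both arrays (points) and their median (black bars), for the respiratory chain genes and 6 lists of other mitochondrial genes in each comparison. The respiratory chain genes lie within -0.83 and 0.56, while regulators, ribosomal proteins and carriers include single genes past 1 in size. Called at 2-fold were 1 of 14 regulators and 1 of 75 ribosomal proteins in each comparison. Among the 19 of the outer membrane, import and carriers it was 0 in G1KO and 1 in the G2KO-labelled RNA. Of all probes 5.79% and 6.37% were called.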

How the data were processed

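Expression was measured on 4 two-colour Agilent mouse arrays, 2 per knockout with exchanged dyes, counted as 1 replicate per genotype. The linear intensity of each spot (its mean, and the median of its surround) was deposited in scanner output, quantified by the authors with Agilent Feature Extraction (version 9.1 in the submitters' processing notes, 10.5.1.1 per the file headers). The authors also deposited log10 ratios in those files and in the series table, which hold the same ratio (r = 0.999999 in size) and were used as alternatives. Using limma 3.58.1 in R 4.3.3, the background was corrected by normexp (offset 50), control spots and the 114 to 203 spots per array marked as outliers were left out, and each array was normalised by loess. Spots of a probe were averaged, ratios were turned to knockout over WT as log2 values, and the mean of the pair was taken. Single-channel levels were obtained by Aquantile. No spot was saturated. The loess step and the 2-fold call were run on a simulated dye-swap pair with known ratios. The background correction, outlier removal, averaging of spots, background filter and Aquantile step were not part of that simulation.

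A probe was tested where, in at least 1 genotype, 0.5 or more of its spots on each usable array exceeded background clearly by the scanner software's flag, which left 25541 and 25431 probes with both arrays. With 1 RNA per genotype no p-value was computed, and precision is limited by there being 4 arrays. Members named were the 2 with the largest difference in each complex and comparison, the subunits of complex II, the X-linked members, the tissue isoforms with their partners and the core subunits of complex I, and of each other list the 3 largest. The lists were complex genes and assembly factors with other names, mitochondrially encoded genes, regulators, citric acid cycle, mitochondrial ribosome, outer membrane with import and carriers, and markers of fibroblast, muscle, neural, epithelial and blood cells and of sex. Members and lists were chosen with earlier results of these data known. Alternatives changed the background correction, normalisation, ratio, filter, probe choice and arrays, and after seeing the data the outlier flags, the chromosome median and the threshold. Names follow RefSeq for GRCm38.p6, positions of probes the array design (mm8). Double knockout arrays were not analysed here. The values of 1 member are not reported here by name, and it remains in the counts and medians.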

Additional observations from a re-analysis of the deposited data

Results flagged for a closer look

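Atp5d, the delta subunit of ATP synthase, had a mean log2 ratio of -0.37 in G1KO and of 0.40 in the G2KO-labelled RNA. By the brightest probes, it was the only member that passed 1.25-fold on every array of one pair in one direction and on every array of the other pair in the opposite direction. This depends on the choice of probe. The brightest probe of Ndufa12, also on chromosome 10, fell short only with the G2KO-labelled RNA in Cy5 (0.28). The other probes of Ndufa12 had means of -0.47 and -0.46 in G1KO and of 0.35 each in the G2KO-labelled RNA. The difference between the pairs was not tested, since each genotype had 1 RNA and the pairs concern different genes. With the median of its chromosome subtracted Atp5d read -0.09 in G1KO and 0.24 in the G2KO-labelled RNA.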

How the results depend on the processing

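In G1KO the count of members called at 2-fold was 0 under every alternative, and the count past 1.5-fold was 0 except on a single array, where it was 1 to 2 in the leave-one-out of each array. The members' median in G1KO (-0.05) was -0.00597 with median centring in place of loess, -0.0258 with normexp without an offset, and -0.0484 to -0.0226 on the arrays alone. In the G2KO-labelled RNA 1 member was called at 2-fold without an offset. The count past 1.5-fold was 0 with median centring, 2 with the scanner software's ratio, 2 with the series table and 2 to 3 on the arrays alone. The median there (-0.04) turned to 0.11 with median centring, under which all probes had 0.03, and was -0.06 to 0.00 on the arrays alone. Median centring left the members' arrays of a pair at 0.88 and -0.93 in G1KO and at 0.99 and -0.84 in the other comparison, so few genes could pass a threshold on both, and Cox6a2 (mean -0.80) did not. The cause of the other moves was not tested. Under all alternatives 52 of 75 members kept their sign in G1KO and 53 of 80 in the G2KO-labelled RNA, and median centring changed 7 and 15. Among medians of single complexes 58 of 72 values in G1KO and 57 of 72 in the G2KO-labelled RNA moved by less than the spread between arrays. No paired analysis was possible because each genotype had 1 RNA. Signal over background kept Cox4i2, Cox8b and Cox8c from being tested.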
